A study of Mus musculus with 2 samples.

Results

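The Klhl and Kbtbd genes code for BTB-kelch proteins, and 45 protein-coding genes in the tables carried such a name, 36 of them Klhl and 9 Kbtbd. They were taken by symbol alone, among 55536 Ensembl genes measured in each library. The tissue was gastrocnemius, a muscle of the calf, of 2 male mice of the hybrid strain B6CASTF1/J, an F1 of the C57BL/6 and CAST backgrounds, aged 36 days and with no treatment named in the labels. Total RNA was sequenced after ribosomal RNA reduction, from 300 ng of RNA with ERCC spike-ins added. The series holds 1 group, so the data give levels and the spread between the 2 animals, and no contrast between conditions. The labels number the libraries as biological replicates 1 and 2 and give each its own biosample, although both carry 1 donor entry, so the spread can be partly technical. The parental alleles were not told apart in the tables.

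A BTB-kelch protein is a substrate adaptor of a ubiquitin ligase. Its BTB domain binds the scaffold cullin-3, while its kelch repeats fold into a propeller that holds the protein to be marked, and the ring protein Rbx1 brings in the conjugating enzyme. In striated muscle some members are known for holding thin filament proteins rather than for destroying them: Klhl40 and Klhl41 keep nebulin and leiomodin 3 stable, and mutations of the human KLHL40, KLHL41 and KBTBD13 genes cause nemaline myopathy.

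The libraries held 36952277 expected counts in replicate 1 and 38754338 in replicate 2, where an expected count is a number of reads estimated for a gene. All 10 genes listed as defining muscle fibres were at 1 TPM or more in both, with a sum of 99714 ± 3397 TPM (SD, n = 2). TPM is an abundance relative to all transcripts of a library, scaled by transcript length, and can be compared between genes. Markers of other cells were unequal: the 8 Schwann cell markers summed to 471.9 TPM in replicate 1 and 107.9 TPM in replicate 2, the 8 fibroblast markers to 1768 and 923.1 TPM, the 7 tendon markers to 155.9 and 104.4 TPM, the 8 macrophage markers to 50.2 and 30.7 TPM and the 7 adipocyte markers to 29.8 and 53.2 TPM. The 6 endothelial (48.3 and 50.6 TPM), 7 satellite cell (38.4 and 37.1 TPM) and 6 smooth muscle and pericyte markers (121.0 and 100.4 TPM) were closer. The 8 lymphocyte markers summed to 0.630 and 0.730 TPM, and Cd3e, Cd3g and Nkg7 were listed at 0.

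Upstream sequence is shown for Klhl41 and Klhl40. They were the highest members of the striated muscle group by mean TPM whose RefSeq and GENCODE annotations gave the same start. Each is the 250 bases before the annotated start, from RefSeq on build GRCm38.p6, in the direction of the gene. Capitals mark E-boxes (CANNTG, the core bound by the MyoD family) and matches to the MEF2 consensus, both of which read the same on either strand.
Klhl41, chr2:69669870-69670119, plus strand: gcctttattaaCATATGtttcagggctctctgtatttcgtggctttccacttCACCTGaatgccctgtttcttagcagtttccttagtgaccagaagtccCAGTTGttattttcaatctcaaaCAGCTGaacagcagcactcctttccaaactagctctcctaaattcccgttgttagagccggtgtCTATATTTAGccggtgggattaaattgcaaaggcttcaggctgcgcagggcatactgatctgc
Klhl40, chr9:121777357-121777606, plus strand: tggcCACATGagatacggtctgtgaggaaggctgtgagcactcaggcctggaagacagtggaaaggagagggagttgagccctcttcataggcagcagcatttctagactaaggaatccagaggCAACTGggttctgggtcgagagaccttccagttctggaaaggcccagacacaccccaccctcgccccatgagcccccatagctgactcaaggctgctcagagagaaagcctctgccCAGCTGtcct

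Motifs were counted in windows that add 50 bases after the start. Klhl41 had 4 E-boxes, starting 239, 198, 150 and 127 bases before the start, and a MEF2 match 63 bases before it. Klhl40 had 4 E-boxes, of which 3 lay before the start and 1 began 8 bases after it, and no MEF2 match. Both annotations, RefSeq and GENCODE, gave the same start for Klhl41 and for Klhl40. The Klhl31 window held neither motif, but its RefSeq start lay 232 bases inside the GENCODE transcript, so no sequence is shown for it. The RefSeq start of Kbtbd12 lay 10521 bases inside. Windows were matched by symbol for 37 of the 45 members and for 7 of the 9 genes of the striated muscle group. In that group 7 of 8 windows held an E-box and 3 of 8 a MEF2 match (Klhl41, Kbtbd12 and 1 of the 2 Klhl33 windows). Over all 32851 windows of this length 72.3% held an E-box and 3.19% a MEF2 match, and over the 49 windows of members 57.1% and 6.12% did. With only the 100 bases before the start, 3 of the 8 windows held an E-box, against 34.4% of all windows, and the same number held a MEF2 match, against 0.992%. A match is a string of letters and was not tested as a binding site.

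Most of the kelch RNA of this muscle came from a few genes. The 45 members summed to 753 ± 9.81 TPM (759.6 in replicate 1 and 745.7 in replicate 2), and Klhl31 and Klhl41 together held 51.9% ± 1.30 of that sum. The median member stood at 2.80 ± 0.0566 TPM. In all, 32 of the 45 members reached 1 TPM in both animals (71.1%), against 45.6% of 22015 nuclear protein-coding genes, and 16 reached 5 TPM (35.6% against 26.4%). Members took 0.255% ± 0.00890 of the expected counts. In bulk tissue, fewer cells of a type and less RNA per cell cannot be told apart.

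**Figure D1:**
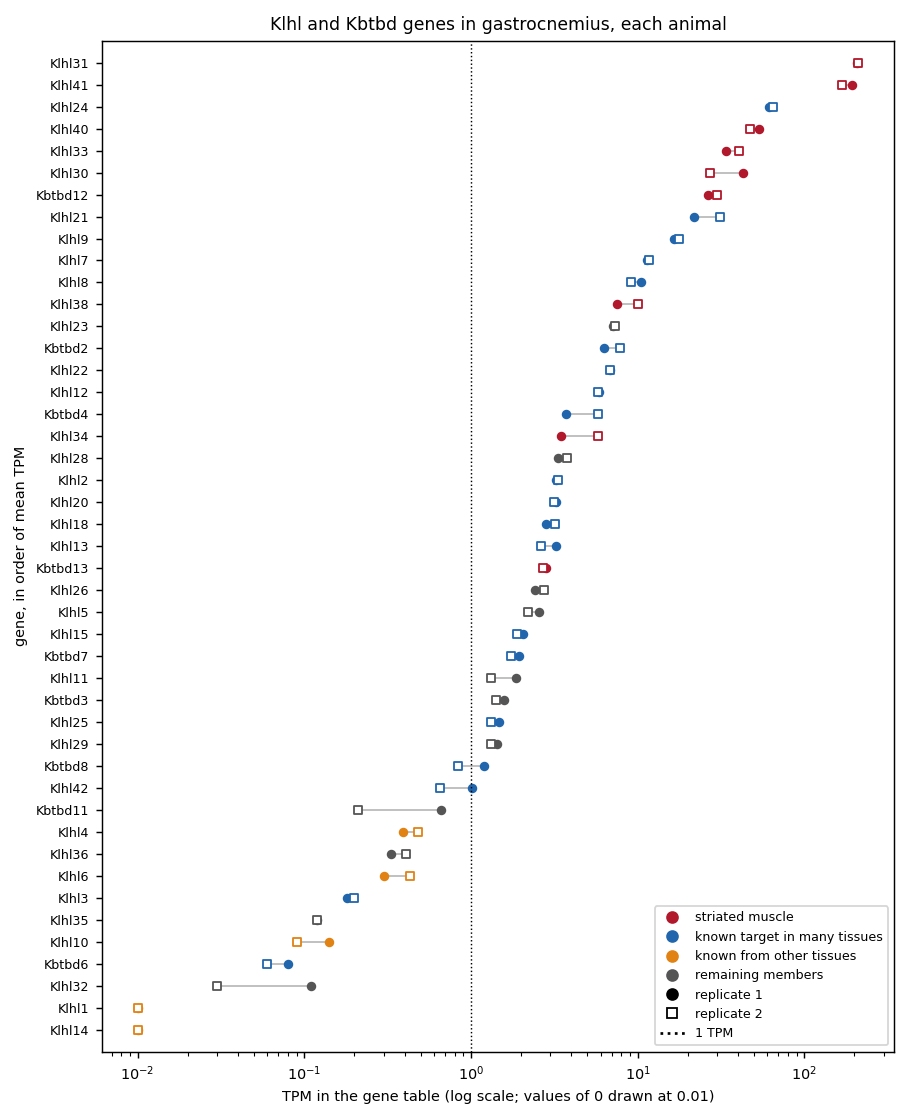
TPM of each of the 45 genes in replicate 1 (filled circles) and replicate 2 (open squares) on a log axis, in order of mean TPM and coloured by group, with a dotted line at 1 TPM. Klhl31 and Klhl41 stand apart at the top in both animals, and Klhl1 and Klhl14, listed at 0, are drawn at 0.01.

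A group of 9 members known mainly from striated muscle was set apart by textbook knowledge: Klhl30, Klhl31, Klhl33, Klhl34, Klhl38, Klhl40, Klhl41, Kbtbd12 and Kbtbd13. All 9 reached 1 TPM in both animals and 7 reached 5 TPM. Together they had 558 ± 20.1 TPM, or 74.1% ± 1.71 of the summed kelch TPM, and the median of their mean levels was 35.0 TPM. The group was drawn up with earlier results on these libraries known, so its high level is a description.

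Klhl31, whose loss in mice gives a myopathy, led the members with 208.4 TPM in replicate 1 and 211.2 TPM in replicate 2. These rested on 42085 and 42791 expected counts over a 6494-base transcript that codes for 634 residues. The gene lies on the plus strand of chr9:77636500-77660127 (mm10) and ranked 197th among nuclear protein-coding genes by mean TPM. The animals differed by a log2 ratio of 0.02, taken as replicate 2 against 1 after 0.1 TPM was added to each, which makes the ratios of low genes smaller.

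Klhl41 (chr2:69670120-69684230) had 192.7 TPM in replicate 1 and 169.0 TPM in replicate 2, below Klhl31 in each. Its log2 ratio between animals was -0.19. Klhl40 (chr9:121777607-121783818), the other stabiliser of nebulin, had 53.9 and 47.4 TPM and a log2 ratio of -0.18. Both were lower in replicate 2 by a similar amount, and Klhl41 exceeded Klhl40 in both animals. Their annotated products are near in size, 606 and 621 residues.

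Klhl33 (chr14:50888582-50897507) had 34.0 TPM in replicate 1 and 40.7 TPM in replicate 2. Klhl30 (chr1:91351016-91362416) went the other way, with 42.9 and 27.0 TPM. Kbtbd12 (chr6:88545114-88637950) had 26.4 and 29.8 TPM. In the gene tables Klhl33 exceeded Kbtbd12 in both animals, whereas the values of Klhl30 overlapped with those of both. The second transcript tables, described further on, reversed the order of Klhl33 and Kbtbd12. There Kbtbd12 had 63.0 and 65.4 TPM and Klhl33 54.9 and 59.3 TPM. By the leading transcript of each gene the order was not reversed there. Klhl33-204 had 40.1 and 39.7 TPM and Kbtbd12-202 had 34.0 and 33.1 TPM.

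Klhl38 (chr15:58314573-58324169) had 7.51 TPM in replicate 1 and 10.1 TPM in replicate 2. Klhl34, a gene of the X chromosome (chrX:157818435-157820369), had 3.48 and 5.76 TPM. Kbtbd13 (chr9:65388684-65391652) was the lowest of the group, with 2.84 and 2.71 TPM from 257 and 246 expected counts. Of the 3 members tied to human nemaline myopathy, Klhl41 was therefore the highest and Kbtbd13 the lowest in both animals.

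Among 20 members with known targets in many tissues, 16 reached 1 TPM in both animals, 8 reached 5 TPM and the median of their mean levels was 3.25 TPM. Klhl24, known for control of intermediate filament proteins such as keratin 14, had 61.6 TPM in replicate 1 and 65.1 TPM in replicate 2 (chr16:20097542-20129221). Klhl31 and Klhl41 alone were higher in the gene tables. Both kinds of transcript table placed much of the Klhl24 TPM on short forms, but mainly on different ones, as described further on. Klhl21, an adaptor that acts on Aurora B in mitosis, had 21.9 and 31.3 TPM. Klhl9, a partner of Klhl13 in the same mitotic step, had 16.4 and 17.8 TPM, whereas Klhl13 itself had 3.26 and 2.65 TPM. Aurkb, the gene of Aurora B, had 0.400 ± 0.0849 TPM. Plk1, a mitotic gene that is also on the list of kelch targets, had 0.205 ± 0.0354 TPM. Both were below 1 TPM in this muscle.

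Klhl7 stood at 11.4 and 11.7 TPM in replicates 1 and 2. Klhl8 stood at 10.5 and 9.13 TPM, and Kbtbd2, which limits the insulin signalling subunit p85 alpha, at 6.27 and 7.81 TPM. The RNA of that subunit, Pik3r1, had 12.5 and 8.75 TPM. Klhl22, which acts on the mTORC1 inhibitor Depdc5, had 6.86 and 6.82 TPM. Klhl12, which acts on the coat protein Sec31a in collagen export, had 5.85 and 5.82 TPM. Klhl23, for which no target was assigned here, had 7.13 and 7.36 TPM. Of these, Klhl7, Klhl22, Klhl12 and Klhl23 had values within 0.3 TPM in the 2 animals in the gene tables. By the second transcript tables Klhl22 had 13.5 and 10.6 TPM, Klhl7 15.6 and 14.8 TPM and Klhl12 8.66 and 7.77 TPM. Klhl23 had 8.86 and 9.01 TPM there.

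The adaptors of the WNK kinases were unequal: Klhl2 had 3.24 and 3.35 TPM in replicates 1 and 2, and Klhl3, better known from the kidney, had 0.180 and 0.200 TPM. Of their targets, Wnk1 had 122 ± 6.48 TPM and Wnk4 0.0650 ± 0.00707 TPM. The other members of the group lay between 0.0600 and 5.75 TPM. Kbtbd4, an adaptor of the CoREST repressor complex, had 3.70 and 5.75 TPM. Klhl20 had 3.26 and 3.15 TPM, Klhl18 2.82 and 3.20 TPM, Klhl15 2.05 and 1.89 TPM, Kbtbd7 1.94 and 1.74 TPM and Klhl25 1.47 and 1.32 TPM. Kbtbd8 (1.20 and 0.840 TPM) and Klhl42 (1.01 and 0.650 TPM) reached 1 TPM in replicate 1 only, and Kbtbd6 (0.0800 and 0.0600 TPM) in neither.

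Of 5 members known mainly from other tissues, none reached 1 TPM. Klhl4 had 0.390 and 0.480 TPM. Klhl6, known from B lymphocytes, had 0.30 and 0.43 TPM, from 22 and 28 expected counts. Klhl10, a gene of sperm cells, had 0.140 and 0.0900 TPM. Klhl1, known from Purkinje neurons, and Klhl14 had 0 counts in both libraries. A count of 0 allows up to 3 reads, which is 0.0812 CPM in replicate 1 and 0.0774 CPM in replicate 2 (CPM being counts scaled by depth, and the limit covering counting error only).

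Of the 11 remaining members, 7 reached 1 TPM in both animals and Klhl23 alone reached 5 TPM. Klhl28 had 3.31 and 3.79 TPM, Klhl26 2.42 and 2.76 TPM, Klhl5 2.56 and 2.19 TPM, Klhl11 1.86 and 1.32 TPM, Kbtbd3 1.58 and 1.41 TPM, and Klhl29 1.43 and 1.32 TPM. The other 4 were under 1 TPM: Kbtbd11 (0.660 and 0.210 TPM), Klhl36 (0.330 and 0.410 TPM), Klhl32 (0.110 and 0.0300 TPM) and Klhl35 (0.120 TPM in each, from 1 expected count each).

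When all members were ordered by mean TPM, values of neighbours did not overlap between animals in 16 of 44 neighbouring pairs. The first 4 steps, from Klhl31 over Klhl41, Klhl24 and Klhl40 to Klhl33, were of this kind. Klhl33, Klhl30 and Kbtbd12 each overlapped with the next in order, which for Kbtbd12 is Klhl21. Klhl21 exceeded the next, Klhl9, in both animals.

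Over the members the animals differed about as much as over all genes. Of the 35 members with a mean expected count of at least 50, 16 were higher and 19 lower in replicate 2, and their median log2 ratio was -0.01, against 0.00 over all 11632 genes at that count. Of these members 88.6% lay within 1.5-fold, and of all such genes 89.5% did. A gene was called when its TPM differed at least 2-fold and the deposited credibility intervals of TPM did not overlap. No member was called, where 2.21% of all genes were. With 1 animal on each side no p-value can be had.

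At 1.5-fold, 2 of the 35 members were called, where 6.43% of all genes were. Klhl30 was lower in replicate 2 by a log2 ratio of -0.67 (4.68% of genes were called lower), with 4052 and 2559 expected counts and intervals of 40.7 to 43.3 and 25.5 to 27.5 TPM. Klhl34 was higher in replicate 2 by a log2 ratio of 0.71 (1.75% of genes were called higher), with 202 and 335 expected counts and intervals of 2.97 to 3.90 and 5.04 to 6.24 TPM. Both belong to the striated muscle group, whose other members were not called and whose median log2 ratio was 0.02. The intervals cover read assignment and counting only, and need not hold the TPM: that of Klhl31 in replicate 1 ran from 202.2 to 206.1 TPM. Schwann cell, fibroblast, tendon and macrophage markers were lower in replicate 2, as Klhl30 was, and 5 of the 5 adipocyte markers with enough counts were higher, as Klhl34 was. Of the 10 muscle fibre genes 6 were higher and 4 lower in replicate 2, with a median log2 ratio of 0.03 and none called. The widest log2 ratio among them was that of Myh1, -0.63, with 1300 and 839.0 TPM in replicates 1 and 2. The part of the other cells or of the fibres in either ratio was not tested.

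**Figure D2:**
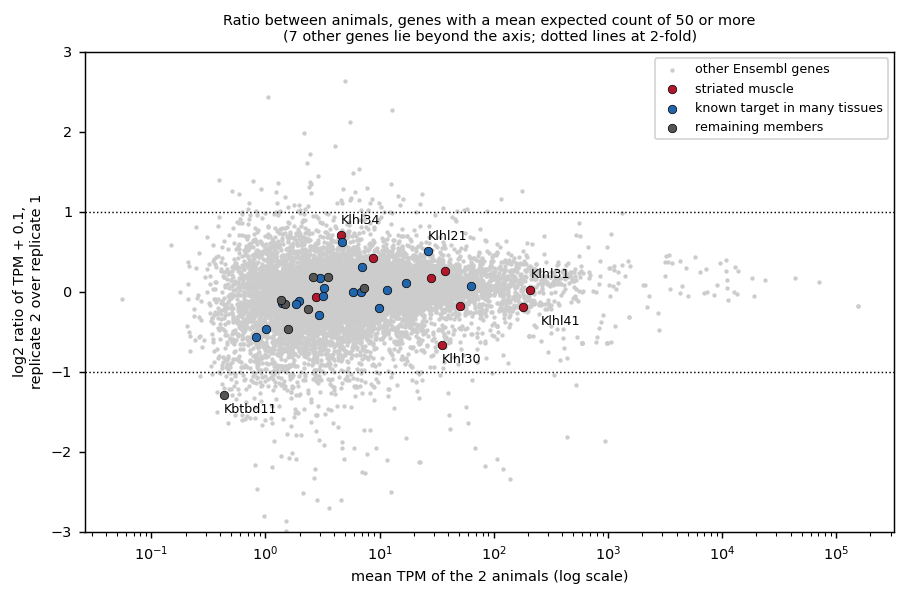
Log2 ratio of TPM + 0.1, replicate 2 over replicate 1, against mean TPM on a log axis, for the members with a mean expected count of at least 50 (coloured by group) and other Ensembl genes at that count (grey), with dotted lines at 2-fold. The members lie within the grey cloud and between the lines, except Kbtbd11, whose intervals overlapped.

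Kbtbd11 had the lowest log2 ratio, -1.29, but its intervals (0.429 to 1.67 and 0.179 to 1.03 TPM) overlapped, so it was not called. Its 78 and 39 expected counts were spread over several transcript forms. For 4 other members the TPM ratio and the CPM ratio stood more than 0.3 apart on the log2 scale, after the members' median difference was taken off, and the deposited effective lengths also differed between the animals. Klhl2 had 306 and 199 expected counts but a near-equal TPM, and its effective length was 2992 bases in replicate 1 and 1875 in replicate 2. Kbtbd4 had 263 and 310 expected counts, a log2 ratio of 0.17 in CPM and of 0.62 in TPM. Klhl25 and Kbtbd8 were the others, with log2 ratios in TPM of -0.14 and -0.47 and in CPM of -0.54 and -0.01.

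A single annotated transcript carried 10 of the 33 members with a mean of at least 1 TPM, among them Klhl31, Klhl41, Klhl30, Klhl38, Klhl34 and Kbtbd13. Of the other 23, 22 had the same leading transcript in both animals by the first transcript tables. The exception was Kbtbd8, where the tables gave Kbtbd8-202 0.660 and 0 TPM and Kbtbd8-201 0 and 0.660 TPM in replicates 1 and 2. The leading form was annotated as protein-coding in all 33. These leading forms code for 458 residues (Kbtbd13) to 875 residues (Klhl29), with a median of 604, and 27 of the 33 code for 550 to 650.

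**Figure D3:**
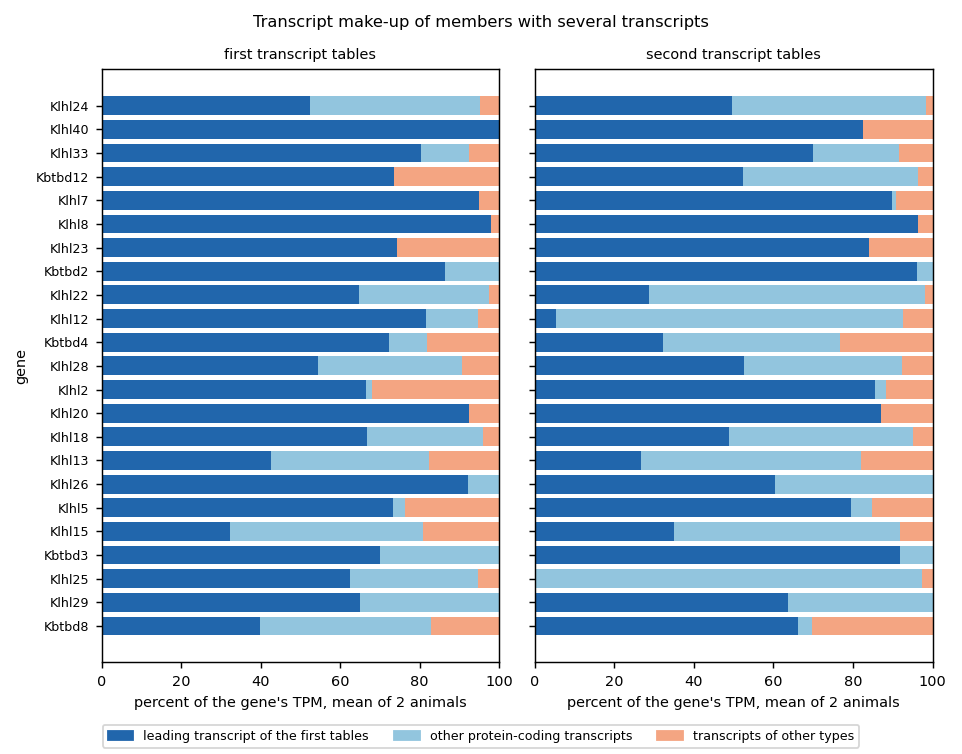
Percent of each gene's TPM, as the mean of 2 animals, in its leading transcript (dark blue), other protein-coding transcripts (light blue) and transcripts of other types (orange), by the first transcript tables (left) and the second (right), for 23 members. Klhl8 and Klhl7 look alike in both, while Klhl12 and Klhl25 shift to another coding form.

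The full-length Klhl24 form, Klhl24-201 (8172 bases, 600 residues), had 32.3 and 34.1 TPM in replicates 1 and 2, or 52.4% ± 0.0653 of the gene. A short form of 840 bases with 670 coding bases, Klhl24-204, took another 42.3% ± 1.33. By its full-length form alone Klhl24 stood below Klhl40 (53.9 and 47.4 TPM), although by the whole gene it stood above. The second transcript tables, which were made directly from the reads, gave Klhl24-204 only 13.7% ± 2.28 and a 741-base form, Klhl24-203, 35.3% ± 3.22, against 0.553% ± 0.782 in the first. Klhl24-201 kept 49.5% ± 0.356 there.

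Kbtbd12 had the largest gap between the tables among members of at least 1 TPM. The second tables gave it 63.0 and 65.4 TPM in replicates 1 and 2, or 2.29 times the mean of the gene tables. The second tables placed 42.2% ± 0.799 of it on Kbtbd12-204, a 647-base form listed at 0 in the first tables. The first tables placed 19.6% ± 0.603 on Kbtbd12-203, a retained intron form that had 1.92% ± 1.40 in the second. The full-length Kbtbd12-202 had 19.7 and 21.6 TPM in the first tables and 34.0 and 33.1 TPM in the second.

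Klhl40 was wholly on its coding form in the first tables, and 17.5% ± 0.286 on a retained intron form, Klhl40-202, in the second. In Klhl33 the coding form Klhl33-204 (793 residues) led in both, with 80.2% ± 6.93 and 69.9% ± 4.31. Klhl2 had 28.7% ± 25.7 on the 321-base noncoding form Klhl2-203, at 0.340 and 1.57 TPM in replicates 1 and 2 and listed at 0 in the second tables. Across the 23 members the leading form was the same in both kinds of table for 17. All 33 members were higher in the second tables, by a median of 1.37 times, and the median over nuclear protein-coding genes of at least 1 TPM was 1.47 times.

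Shared sequence limited few members. Of all 100-base windows of the leading transcripts, the read length implied by the deposited effective lengths, windows found in a transcript of another gene occurred in 4 of the 45. Kbtbd7 and Kbtbd6 are neighbours on chromosome 14, 20798 bases apart. They shared 601 windows, 13.6% of Kbtbd7 and 20.8% of Kbtbd6, so the low level of Kbtbd6 is uncertain. In Klhl41 1.48% of windows were shared and in Klhl24 0.0867%. Kbtbd4 overlaps exons of Ptpmt1 by 1657 bases on the other strand (19.7 and 24.3 TPM) and of Ndufs3 by 88 bases (167.8 and 181.7 TPM). The labels name stranded libraries, but no source used here says whether counting used strand, so reads of Kbtbd4 and of those genes may not be fully separated.

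Members also lay near each other at 3 other places within 200000 bases, with unequal levels. Klhl41 and Klhl23 are 137713 bases apart on chromosome 2, at mean levels of 181 and 7.25 TPM. Klhl24 and Klhl6 are 114504 bases apart on chromosome 16, at 63.3 and 0.365 TPM. Klhl11 and Klhl10 are 5591 bases apart on chromosome 11, at 1.59 and 0.115 TPM.

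RNA for the parts of the ligase that these adaptors serve was detected throughout. Of 28 genes for the cullin-3 core, its neddylation, exchange and deneddylation, all 28 reached 1 TPM in both animals, with a sum of 942 ± 26.3 TPM. Of nuclear protein-coding genes 45.6% reached 1 TPM in both. The conjugating enzyme gene Ube2d3 led with 105 ± 4.78 TPM and the scaffold Cul3 followed with 91.5 TPM in replicate 1 and 93.2 TPM in replicate 2. Rbx1, the ring subunit, had 33.8 and 36.9 TPM, and the ubiquitin-like modifier Nedd8 72.7 and 70.4 TPM. The lowest was the Rbx1 inhibitor Glmn at 1.97 ± 0.0283 TPM. The exchange factor Cand2, known from muscle, had 25.9 and 28.9 TPM and its relative Cand1 5.54 and 5.58 TPM. Of the 28, 19 were higher and 9 lower in replicate 2, and the median log2 ratio was 0.03. None was called at 2-fold, where 2.21% of all genes were. Dcun1d4, a neddylation cofactor, had the widest log2 ratio of the list, -0.33. Rbx1, Nedd8, Cand1 and Cand2 were chosen for mention after their values were seen.

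**Figure D4:**
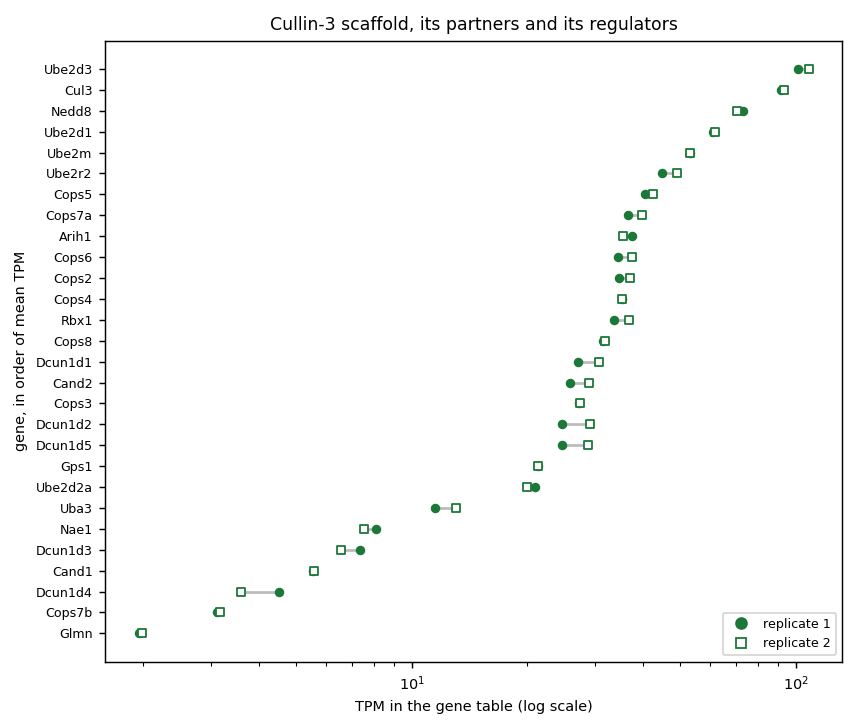
TPM of 28 genes of the cullin-3 ligase and its regulators in replicate 1 (filled circles) and replicate 2 (open squares) on a log axis, in order of mean TPM. Ube2d3 and Cul3 lead, and Glmn is lowest, at 1.97 TPM as its mean.

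Cul3 was below Klhl31 and Klhl41 but above each of the other 43 members in both animals. The summed TPM of the members was 753 and that of Cul3 92.4 as its mean. TPM counts RNA and gives no ratio of proteins.

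The proteins that kelch members hold were measured as RNA too. Of 21 listed targets, 17 reached 1 TPM in both animals. Nebulin, Neb, had 2060 and 2192 TPM, and the thin filament organiser Nrap 231.9 and 242.5 TPM. Lmod3, the leiomodin that Klhl40 stabilises, had 44.0 and 51.0 TPM, near Klhl40 and below Klhl41. It was picked for that link after its values were seen. Filamin C, Flnc, a target of Klhl31, had 168.7 and 163.2 TPM. Krt14, the skin target of Klhl24, was listed at 0 in both. Of 17 targets with enough counts, 11 were higher and 6 lower in replicate 2. Dapk1, a kinase targeted by Klhl20, was called lower (3.83 and 1.72 TPM, log2 ratio -1.11), where 1.76% of genes were, while Klhl20 had a log2 ratio of -0.05. Markers of Schwann cells and fibroblasts were lower in that animal too, and their part in the Dapk1 ratio was not tested.

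The 10 other genes of nemaline and thin filament myopathies were all above 1 TPM. Acta1 (23844 ± 1662 TPM) and Tnnt3 (13445 ± 148 TPM) led, and Tpm3 (33.0 and 60.8 TPM) was lowest by mean. The slow troponin T gene Tnnt1, with 36.0 and 73.3 TPM, was called higher in replicate 2 (log2 ratio 1.02), where 0.447% of genes were. In the gene tables Klhl41 lay above 6 of these 10 in both animals: Cfl2, Myo18b, Mypn, Tnnt1, Lmod3 and Tpm3. For Cfl2 this depends on the tables. In the second tables Cfl2 had 501.1 and 406.0 TPM and Klhl41 272.8 and 219.3 TPM, while Myo18b, Mypn, Tnnt1, Lmod3 and Tpm3 stayed below Klhl41.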

How the data were processed

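Total RNA-seq libraries of 2 animals were analysed as deposited. Per the file headers and notes, the gene and first transcript tables came from transcriptome alignments (mm10, GENCODE M21) and the second transcript tables directly from reads. The sources used here name no aligner, quantifier or version. The authors deposited expected counts, which need not be whole, and TPM scaled over all 81881 features of the gene table. Deposited FPKM served as an alternative. The deposited percent per transcript was replaced by shares computed from transcript TPM. The level of the deposited credibility intervals is not stated. Members were found by symbol in the second transcript tables, and coordinates come from the matching M21 annotation. Levels are mean ± SD (n = 2).

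Ratios used a pseudocount of 0.1 TPM, and calls needed a mean expected count of 50, a 2-fold ratio and intervals apart. The rule was tested on simulated data with counting noise alone, so that test does not cover the wider spread between these libraries. The libraries differed by more than sampling noise (chi-square per degree of freedom 44.3 over 11632 genes). With 1 group no test was made. Members, groups and gene lists were chosen with earlier results of these data known. All members could be named, and values per animal were planned for the striated muscle group and for those of at least 5 TPM. Values per animal of the other members were added beyond that plan. Of each list, the 2 highest, the lowest and the widest ratio at 1 TPM or more were named. All symbols of the lists of other genes were found. Genes named outside these rules are marked as such or stand beside a member as its target. Alternatives were the second tables, TPM rescaled over nuclear protein-coding genes, FPKM, other thresholds, pseudocount 1 and leaving out each animal. Protein sequences were not used here. Python 3.11.15, pandas 2.3.3 and numpy 2.4.6 were used.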

Additional observations from a re-analysis of the deposited data

How the results depend on the processing

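The striated muscle group's share of the summed kelch TPM (72.9 to 75.3% with either animal left out, 74.7% in the second transcript tables) and the number of members at 1 TPM (32 to 34 with either animal left out, 34 in the second tables) moved little. The sum itself, 745.7 to 759.6 with either animal left out, depends on the scale: it was 1081 TPM in the second tables, 1827 TPM when rescaled over nuclear protein-coding genes and 629 FPKM. At a threshold of 5 TPM 16 members were detected. The same 16 members were highest under each of these scales and with either animal left out. Single levels moved by more than the SD of the animals for 17 of 18 named members in the second tables and for all 18 when rescaled. Counts of called members were 0 with pseudocount 1, without a filter, at a mean count of 200 and when rescaled, and 2 at 1.5-fold. Of all genes 6.43% were called at 1.5-fold. For the settings with a count of 0 the share over all genes was not computed, so those counts are a description. In the second tables, which have no intervals, Klhl42 alone passed 2-fold (2.41 and 1.03 TPM), where 3.88% of genes did. There the median log2 ratio was -0.16 over 36 members and -0.11 over all genes. Of these 36 members 11 were higher and 25 lower in replicate 2. When TPM was rescaled, 12 members were higher and 23 lower, so the split by direction depends on the scale. The E-box count depends on the window: 3 of 8 windows held an E-box in the 100 bases before the start, and 7 of 8 in the whole window. The MEF2 count was 3 of 8 in both. No paired analysis was possible because there is 1 group. With 2 animals, and under about 50 counts a gene, small differences are not detectable.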

Other observations

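Other BTB proteins and cullins share the ligase or its design. Of the other 4 BTB-kelch genes, Ivns1abp, which binds actin, had 43.9 TPM in replicate 1 and 39.5 TPM in replicate 2. Keap1, the sensor that restrains the oxidative stress factor Nrf2, had 21.5 and 22.9 TPM. Enc1 was the lowest, at 1.24 and 0.580 TPM. Among 16 BTB adaptors without kelch repeats, 15 reached 1 TPM in both animals: Spop had 82.6 and 72.1 TPM, Btbd1 56.1 and 48.9 TPM, and Kctd13 was lowest at 0.730 ± 0.212 TPM. Rhobtb1 had the widest log2 ratio of that list, 0.57. All 7 other cullins were at 1 TPM or more, led by Cul4a (25.6 ± 1.60 TPM) and Cul5 (24.1 ± 1.17 TPM), with Cul7 lowest (2.64 ± 0.339 TPM) and Cul2 at the widest log2 ratio, 0.39. None of the 26 of these genes with enough counts was called at 2-fold, where 2.21% of all genes were.

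Beside 3 other families of ubiquitin ligase genes, taken by symbol and set side by side without a test, the 45 kelch members had the summed 753 ± 9.81 TPM given above. The 77 F-box genes had 469 ± 48.9 TPM, the 68 Trim genes 579 ± 5.25 TPM and the 18 Asb genes 497 ± 51.8 TPM. The 3 highest genes of each held 60.3% ± 0.864 of the kelch sum, 37.7% ± 2.58 of the F-box sum, 59.1% ± 0.498 of the Trim sum and 62.5% ± 0.841 of the Asb sum.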
